A study of Mus musculus with 2 samples.

Results

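The cells described here were the single heart muscle cells labelled as left ventricle (LV) in a study that sorted adult mouse cardiomyocytes from 4 chambers. A cell was kept when it held at least 1000 gene UMIs (unique molecular identifiers, the tags that count captured RNA molecules) and at least 500 genes. This left 91 of the 96 LV cells, of 332 cells with a chamber label in that study and 449 barcode columns in both studies of the series. The 5 cells left out held 72 to 2787 gene UMIs and 32 to 444 genes, and the kept cells started at 3574 gene UMIs and 657 genes. All were wild-type C57BL/6 cells, not fixed, from animals of about 3 months. Hearts were digested by perfusion for 9 minutes at 1.5 mL per minute, and the cells were sorted into plates and sequenced with SCRB-seq, which counts poly(A) RNA from its 3′ end. The cells came from 4 libraries, named A to D in the deposited labels, with 23, 24, 20 and 24 LV cells. The labels name no animal and do not say what a library stands for, so cells were not treated as replicates and no test was run. All values below describe these wells.

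Ventricular myocytes are the contracting cells of the heart's pumping chambers. Their sarcomeres slide thick filaments of myosin past thin filaments of actin, held in register by titin and anchored at the Z-disc, and calcium released through the ryanodine receptor starts each beat. Mitochondria fill much of the cell and burn mainly fatty acids. The ventricular identity is read from Myl2 and Myl3, the light chains of myosin, Myh6, the main adult mouse heavy chain, Ttn (titin) and Tnnt2 (cardiac troponin T), while Nppa, Sln, Myl4 and Myl7 mark atrial cells.

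The LV cells held a median of 40953 gene UMIs, with medians of 36283, 42068, 55354.5 and 39009.5 in libraries A, B, C and D. Single wells ranged from 3574 to 223454. Mitochondrially encoded RNA took 41.0% of all gene UMIs, and levels below are therefore UMIs per 1000000 nuclear-encoded UMIs (CPM) unless a sentence says otherwise. Wells are named by their library and their place in barcode order. The LV wells of libraries A and B carried the same 24 barcodes, those of C and D another 24, and no barcode was shared between these pairs. The deepest well, A13, gave 5.43% of all nuclear-encoded UMIs.

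The 5 ventricular myocyte markers had UMIs in all 91 cells, and 3 wells stood apart in their share. Together the markers made up a median of 5.99% of a cell's nuclear-encoded UMIs. In A09 they made up 0.634%, in C02 1.19% and in B04 1.80%, and the next lowest well stood at 2.89%. A09 and B04 also held the least mitochondrially encoded RNA, 8.76% and 15.3% of gene UMIs against a median of 39.6%, and the most RNA of the endothelial list, 0.807% and 0.556% of nuclear-encoded UMIs. C02 was a shallow well with 6494 nuclear-encoded UMIs in which fibroblast genes held 0.785%. Values that moved by over 1.5 times without these 3 wells are given with and without them. The 4 atrial markers were close to absent: Nppa and Sln had 1 UMI each in 91 cells, Myl7 3 UMIs and Myl4 16 UMIs in 8 cells.

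**Figure D1:**
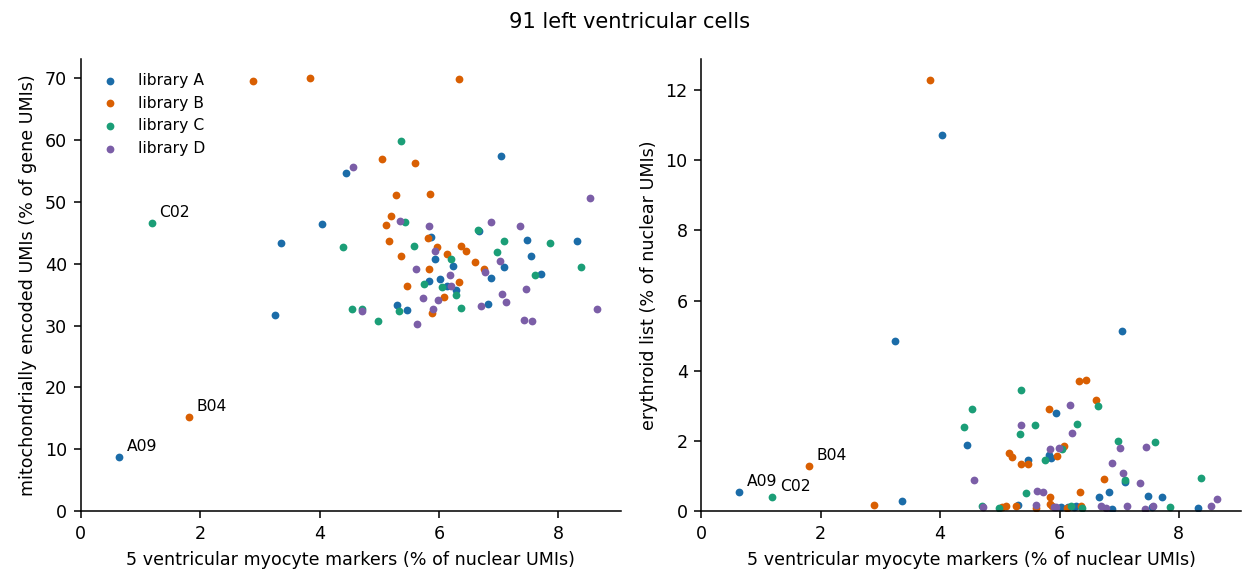
Each point is an LV cell, coloured by library; the horizontal axis gives the share of nuclear-encoded UMIs from the 5 ventricular myocyte markers. The left panel plots the mitochondrially encoded share of gene UMIs and the right panel the erythroid share of nuclear-encoded UMIs; A09, B04 and C02 lie below 2% on the horizontal axis, and A09 and B04 also lie lowest in the left panel.

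Genes of the sarcomere led the nuclear-encoded transcriptome. Ttn stood at 15584 CPM (95% Poisson interval 15431 to 15737, counting error only), Tpm1 (tropomyosin) at 13216, Tnnt2 at 12773, Myl2 at 10497, Myl3 at 9852, Myh6 at 9585, Actc1 (cardiac actin) at 7432 and Tnni3 (troponin I) at 6825 CPM. Slc25a4, which exchanges ADP and ATP across the inner mitochondrial membrane, stood at 8590 CPM. These are counts of 3′ tags and were not divided by length. Whether the levels depend on gene length was not tested. In all, 33 genes of the thin filament, the thick filament and M-band, and the titin and Z-disc lists held 10.7% of nuclear-encoded UMIs, and the 10 most abundant genes of any kind held 17.9%. A total of 248 genes held 50% of these UMIs.

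The most abundant row was not a muscle gene. CT010467.1, a locus annotated as ribosomal RNA (GRCm38, chr17:39846353-39848827), stood at 77355 CPM, from 33870 to 251350 CPM in single cells. Protein-coding genes took 86.0% of nuclear-encoded UMIs and rows annotated as ribosomal RNA 7.74%. Camk1d (a calcium-dependent kinase gene) at 11744 CPM and Cmss1 at 10004 CPM also ranked among the 15 most abundant genes, and over the 91 cells their levels followed that of CT010467.1, with Spearman correlations of 0.80 and 0.78. Of the other genes with a mean of at least 5 UMIs per cell, 7 had a correlation of at least 0.6 with this locus, Camk1d and Cmss1 included. With CT010467.1, these 7 genes and the loci with under 2 reads per UMI left out of the total, 406 genes held 50% of the UMIs. The correlations of Ttn, Tpm1, Tnnt2, Myl2, Myl3 and Myh6 with this locus lay between -0.43 for Myh6 and 0.06 for Ttn. The list of 15 was completed by Trim30a at 6192 CPM, the non-coding Mir99ahg at 5881 CPM and 1 predicted gene.

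Mitochondrially encoded genes took the largest single block of RNA in these cells. The ribosomal RNAs mt-Rnr2 and mt-Rnr1 held 19.8% and 9.66% of all gene UMIs. Among the protein genes, which encode subunits of the respiratory chain, mt-Cytb held 2.62%, mt-Nd1 2.60%, mt-Nd4l 2.08%, mt-Co1 1.48%, mt-Nd2 1.16%, mt-Nd5 0.942% and mt-Nd6 0.684%. Every one of these 7 was seen in all 91 cells. The remaining ones were nearly empty, with 54 UMIs of mt-Nd3, 47 of mt-Atp6, 20 of mt-Atp8 and 6 of mt-Co2 over all cells, and mt-Nd4 and mt-Co3 were not analysed here. The share of all mitochondrially encoded RNA ran from 8.76% in A09 to 70.0% in B12, and B12, B01 and B06 were the 3 wells above 60%.

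Detection was broad across the gene set and narrow across cells. At least 1 UMI was seen for 21071 nuclear-encoded genes, of which 4107 were seen in a single cell and 11677 in under 10% of cells. A median cell showed 3706 nuclear-encoded genes. Genes seen in at least 95% of cells numbered 304, or 1.44% of those with a UMI, and 81 were seen in all 91 cells. At an equal depth of 10000 nuclear-encoded UMIs, which 80 cells reached, a cell showed 2052 to 4119 genes with a median of 2557, and 296 genes were seen in at least 95% of those cells. By list, 30 of 36 nuclear-encoded oxidative phosphorylation genes in the table reached the 95% line, as did 6 of 9 thin filament, 6 of 9 thick filament and M-band, 10 of 15 titin and Z-disc and 9 of 15 calcium handling genes. Of the other metabolic lists, 9 of 17 glucose, 12 of 25 fatty acid and 7 of 17 citrate cycle genes did, beside 13 of 29 cytosolic ribosome genes and 3 of 6 erythroid genes. Of the cardiac transcription factors 0 of 18 reached it, and of the ion channel and junction genes 2 of 17. A UMI alone does not show that a cell expresses a gene: the haemoglobin genes, which belong to red cells, had UMIs in 91 (Hbb-bs and Hba-a1), 89 (Hba-a2) and 82 (Hbb-bt) of the same 91 cells.

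The spread of a gene between cells was measured as its excess CV, the coefficient of variation between cells of a library that remains after Poisson counting noise is taken off. A value of 1 means that the standard deviation between cells equals the mean. Among the 3775 genes with a mean of at least 1 UMI per cell the median was 0.99, with 48.6% of genes at 1 or more and 1.64% at 0.3 or less. The value fell as the level rose. Its median was 1.24 for the 1802 genes with a mean of 1 to 2 UMIs, 0.62 for the 395 genes with 5 to 10 UMIs, and 0.36 for the 22 genes with 100 or more.

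Spike-in RNA, which is added in the same amount to each well and cannot vary biologically, fell with level as well. The 19 ERCC spike-ins with a mean of at least 1 UMI went from an excess CV of 1.72 at a mean of 1.18 UMIs to 0.17 at a mean of 99.5 UMIs. Their variance in excess of Poisson noise was 3.40 times their mean (median, with 1.61 the lowest and 4.85 the highest). For the 722 genes with a mean of at least 5 UMIs and 2 or more reads per UMI it was 3.34 times their mean. For the 45 genes at that level with under 2 reads per UMI it was 1.16 times. Spike-ins had a median of 18.8 reads per UMI, against 8.45 for genes with a mean of at least 5 UMIs. Whether spike-in noise fits genes with fewer reads per UMI was not tested, so a value of 0 over it does not show an absence of spread. Where this spike-in noise was taken off as well, 188 of 3775 genes still stood at 1 or more, in place of 1835. Of the 767 genes with a mean of at least 5 UMIs, 399 came to 0, and 66 (8.6%) had an excess CV over spike-in noise of at least 0.5. Without A09, B04 and C02 that number was 45, of which 43 were among the 66. No spike-in had a mean above 99.5 UMIs, so for the 22 genes above that level the noise is extrapolated; their median excess CV over it was 0.34. The lists below are read against this 8.6%, and both measures are named wherever a value is given.

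**Figure D2:**
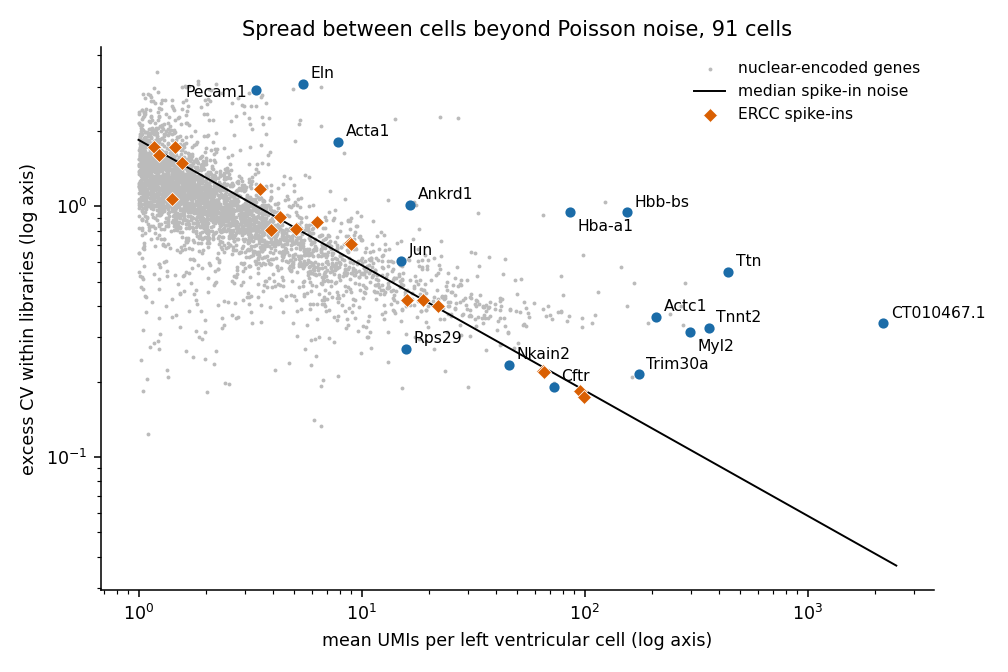
Each grey point is a nuclear-encoded gene with a mean of at least 1 UMI per LV cell (genes with an excess CV of 0.05 or less are not drawn), orange diamonds are the 19 ERCC spike-ins, and the line is the median spike-in noise; both axes are logarithmic. Most genes lie along or under the spike-in line, which is extrapolated above 99.5 UMIs, while Eln, Pecam1, Acta1, Ankrd1, the haemoglobin genes and Ttn lie above it and Trim30a, Cftr, Nkain2 and Rps29 lie near or under it.

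The abundant thin filament genes had excess CVs near the median of 0.36 for genes with 100 or more UMIs, or somewhat under it. Tpm1, Tnnt2, Tnni3, Tnnc1 (cardiac troponin C) and Actc1 had excess CVs of 0.32, 0.33, 0.34, 0.34 and 0.36. Summed over each library, Tnnt2 gave 12524, 10989, 13826 and 13639 CPM in A, B, C and D, and single cells ran from 1696 to 28033 CPM with a median of 13141. All 4 library values lay within 1.26-fold of each other. The spread was smaller without the wells that stand apart: leaving out A09, B04 and C02, the excess CV of Tnnt2 was 0.20 and that of Tpm1 0.19. Of 7 thin filament genes with a mean of at least 5 UMIs, 1 (Acta1, below) had an excess CV over spike-in noise of at least 0.5, with and without these wells, and the list median was 0.31, or 0.22 without them.

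Thick filament and M-band genes had like values. Myl2 gave 8961, 9285, 11375 and 12367 CPM in libraries A to D, and 1127 to 18692 CPM in single cells with a median of 11204. The 2 lowest cells were B04 and A09, and the libraries differed by up to 1.38-fold. Its excess CV was 0.32, that of Myl3 0.34 and that of Myh6 0.40, and without the 3 wells they were 0.22, 0.24 and 0.28. The minor heavy chains were lower and less even: Myh7, the slow myosin heavy chain that adult mouse ventricle largely lacks, stood at 481 CPM with an excess CV of 0.60, and Myh7b at 182 CPM with 1.02. Of 9 genes of this list, Myh7b was the 1 with an excess CV over spike-in noise of at least 0.5 (0.61, or 0.56 without the 3 wells).

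At the Z-disc, Ankrd1 (1.01) and Xirp2 (0.64) had higher excess CVs than the most abundant members. Cryab (a small heat shock protein of the Z-disc), Tcap (telethonin) and Csrp3 (muscle LIM protein) had excess CVs of 0.40, 0.51 and 0.41. Ttn had 0.55, and its libraries differed: 0.77 in A, 0.37 in B, 0.51 in C and 0.26 in D. Its summed level did not, at 15409, 15729, 15467 and 15751 CPM, and single cells ran from 1003 to 33301 CPM. Without the 3 wells its excess CV was 0.44 and that of Tcap 0.46, so these were no longer in the same order, nor were they with every cell weighted equally (0.43 and 0.44). Without the deepest well A13 that of Ttn was 0.51. Of the 13 genes measured at 5 UMIs or more, 4 were at or over 0.5 above spike-in noise (Ttn, Nebl, Xirp2 and Ankrd1), and 2 of 13 (Nebl and Ankrd1) without A09, B04 and C02.

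**Figure D3:**
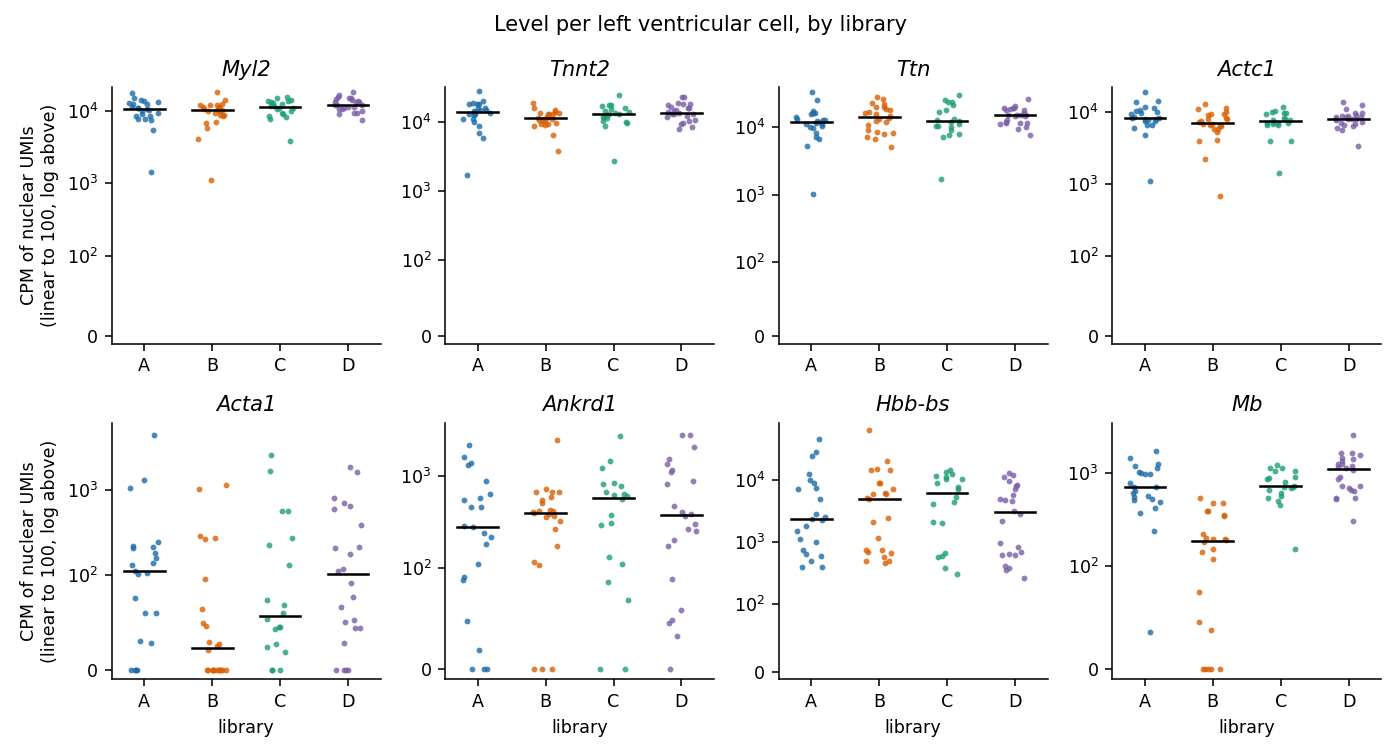
Each point is an LV cell in library A (23 cells), B (24), C (20) or D (24), the vertical axis is CPM of nuclear-encoded UMIs on a scale that is linear to 100 and logarithmic above, and the bar is the median of the library. Myl2, Tnnt2 and Actc1 sit in a narrow band apart from a few low wells, and Ttn spreads more widely than these (excess CV 0.55). Acta1, Ankrd1 and Hbb-bs spread over orders of magnitude in every library, and Mb sits lower in library B.

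Oxidative phosphorylation genes had a spread near that of all genes at their level. The 36 nuclear-encoded oxidative phosphorylation genes, which encode the respiratory chain and ATP synthase subunits made outside mitochondria, had a median excess CV of 0.37, and 0 of 36 were at 1 or more or at 0.3 or less. Cox6a2, Atp5g1 and Atp5b, the 3 most abundant, stood at 3968, 3019 and 2954 CPM with excess CVs of 0.37, 0.36 and 0.35. Without the 3 wells Atp5b was at 0.22. The lowest was Uqcrc1 with 0.33 and the highest Ndufs1 with 0.77. As a whole the list took 0.542% to 8.36% of a cell's nuclear-encoded UMIs with a median of 5.49%, lowest in B04. Its median excess CV over spike-in noise was 0.24, or 0.09 without the 3 wells, and 0 of 36 reached 0.5 either way. The median level of the list was 34.9 UMIs. All 124 genes with 20 to 50 UMIs had a median excess CV of 0.41, and of 0.24 over spike-in noise. Across all 767 genes with a mean of at least 5 UMIs the median over spike-in noise was 0.

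Fatty acid, glucose and citrate cycle genes gave similar values. Lpl (lipoprotein lipase), Fabp3 (the muscle fatty acid binding protein) and Pdk4 (which restrains glucose oxidation) had excess CVs of 0.38, 0.36 and 0.58, with Etfb lowest at 0.36 and Angptl4 highest at 1.18 on a mean of 1.65 UMIs. Of the glycolytic genes, Aldoa, Ldhb and Eno3 had 0.37, 0.43 and 0.43, with Pkm lowest at 0.32 and Hk1 highest at 0.90. Idh2, Mdh1 and Ogdh of the citrate cycle had 0.42, 0.37 and 0.40, with Mdh1 at 0.24 without the 3 wells. With every cell weighted equally Ldhb was at 0.75. Over spike-in noise, 0 of 17 fatty acid, 0 of 12 glucose and 0 of 16 citrate cycle genes reached 0.5. Creatine kinase genes were alike: Ckmt2 and Ckm, which buffer ATP, had excess CVs of 0.42 and 0.40, and the scarce brain form Ckb 1.41 on a mean of 1.92 UMIs.

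Protein synthesis and folding genes lay near the spike-in line, as did genes at their level. Among members with a mean of at least 5 UMIs, the median levels of the ribosome and chaperone lists were 12.6 and 15.5 UMIs. All 196 genes with 10 to 20 UMIs had a median over spike-in noise of 0.06. The 29 measured cytosolic ribosome genes had a median excess CV of 0.50, and their median over spike-in noise was 0, with 0 of 28 at 0.5 or more. Rps2, Rplp1 and Rplp0 stood at 1268, 891 and 815 CPM with excess CVs of 0.36, 0.37 and 0.43. Rps29 was the lowest of the list at 0.27 (0.42 with every cell weighted equally) and Rpl3 the highest at 1.33, with 18.4% of the UMIs of Rpl3 in A09. Chaperones gave a median of 0 over spike-in noise too: Hsp90ab1, with 1931 CPM, had an excess CV of 0.33 and Hspa8, a constitutive chaperone, 0.30. The stress-inducible Hspa1b had 1.77 (4.06 with every cell weighted equally), on a mean of 1.35 UMIs of which 22.8% lay in B04. Of the ubiquitin ligase and autophagy list, Map1lc3a and Sqstm1 had excess CVs of 0.39 and 0.53, and the ligase Trim55 1.29 on a mean of 1.69 UMIs.

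Calcium handling genes were intermediate. Atp2a2 (SERCA2, the pump that refills the sarcoplasmic reticulum) stood at 5503 CPM with an excess CV of 0.40, Ryr2 (the calcium release channel) at 2834 CPM with 0.44, and Cacna1c (the L-type calcium channel) at 1533 CPM with 0.54. S100a1, a calcium sensor of the same release unit, was the lowest of the list at 0.36. Of 13 genes, 3 had at least 0.5 over spike-in noise, among them Slc8a1 (the sodium-calcium exchanger, 0.62) and Camk2d (a calcium-dependent kinase, 0.52), and 2 of 13 without A09, B04 and C02.

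Ion channel and transcription factor genes were low, and 6 of 17 and 3 of 18 had a mean of at least 5 UMIs. Dsp (desmoplakin, of the cell junction) and Kcnd2 (a transient outward potassium channel) were the most abundant of the channel and junction list at 700 and 511 CPM. Kcnd2 alone of 6 genes reached 0.5 over spike-in noise (0.53), and 0 of 6 did without the 3 wells. The metabolic regulators Ppargc1a and Esrrg and the cardiac factor Gata4 led the transcription factors at 332, 267 and 182 CPM, with values over spike-in noise of 0.52, 0.60 and 0.25, so that 2 of 3 reached 0.5. Without the 3 wells 0 of 3 did, with Ppargc1a at 0.39 and Esrrg at 0.47. For the circadian clock genes, 4 were measured (Bhlhe40, Tef, Clock and Nr1d2), all under a mean of 2 UMIs and each at 0 over spike-in noise.

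Skeletal muscle actin and cardiac actin differed in how they were spread over the same cells. Actc1 (chr2:114047282-114053548, GRCm38) had UMIs in all 91 cells. Acta1, the skeletal form that adult myocytes can re-express (chr8:123891769-123894751), had UMIs in 69. Library sums of Acta1 were 215, 145, 474 and 271 CPM in A to D, and cells ran from 0 to 4477 CPM around a median of 64.8. Every library held both cells without a UMI and cells above 1000 CPM. The excess CV of Acta1 was 1.80, at 1.63, 1.81 and 1.95 in libraries A, B and C and lowest in D, and the same without the 3 wells (1.80) and without its top well C24 (1.71). For Actc1 it was 0.36. Over cells, the 2 actins had a Spearman correlation of 0.35 (0.16 to 0.65 within libraries).

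The 120 bases before the RefSeq start of each actin gene (RefSeq, GRCm38.p6, 5′ to 3′ on the gene's minus strand, chr2:114052876-114052995 and chr8:123894776-123894895) are shown because these genes encode nearly the same protein yet differ in spread. Capitals mark the CArG box, the binding motif of serum response factor, searched on both strands, and the letters TATAAA, likewise on both strands; the motifs do not overlap here. Starts are those of RefSeq, and the window of Actc1 lies inside the GENCODE span given above. The window of Acta1 lies outside its GENCODE span and does not adjoin it: the span ends at 123894751 and the window begins at 123894776. Distances below are to the RefSeq starts, and those to the GENCODE starts differ.
Actc1: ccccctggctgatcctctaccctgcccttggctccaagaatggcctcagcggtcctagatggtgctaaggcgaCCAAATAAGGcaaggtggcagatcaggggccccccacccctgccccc
Acta1: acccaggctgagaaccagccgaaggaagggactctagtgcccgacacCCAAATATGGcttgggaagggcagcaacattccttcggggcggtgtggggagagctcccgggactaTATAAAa
Both windows held a CArG box, with its first base 47 bases before the RefSeq start of Actc1 and 73 before that of Acta1. TATAAA was found in the window of Acta1, with its first base 7 bases before the RefSeq start. Over the 250 bases before all 32851 starts of that table, 1.47% held a CArG box and 12.4% held TATAAA. By gene, where any of its starts counts, a CArG box was found for 1.62% of all genes with a start there. Among those with a mean of at least 5 UMIs, it was found for 15 of 583 (2.57%). With an excess CV over spike-in noise of at least 0.5 it was found for 5 of 47 (10.6%), and at 0 for 4 of 309 (1.29%). By start, the shares of these last groups were 6.49% and 0.985%. TATAAA was found by gene for 14.9% of the group at 0.5 or more, 9.39% of that at 0 and 14.3% of all genes. A CArG box was also found for 5 of 27 measured genes of the 3 filament lists (18.5%), which overlap with the group at 0.5 or more. A match is letters in a window and not a bound site.

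Other genes of the stretch and stress list followed in part. Ankrd1, a titin-bound protein raised by mechanical load, gave 428, 460, 757 and 702 CPM in A to D and 0 to 2862 CPM in single cells, with UMIs in 82 cells. Its excess CV was 1.01 (0.82 to 1.06 in the 4 libraries) and 0.90 over spike-in noise. Over cells its level had a correlation of 0.45 with Acta1 (0.37 to 0.73 within libraries), the highest of the 722 genes with a mean of at least 5 UMIs and 2 or more reads per UMI. For Acta1 the closest gene was Ptgds (0.55), with Ankrd1 next. Myh7, which is often read together with these genes, did not go with them: its correlation was -0.11 with Acta1 and -0.09 with Ankrd1. Xirp2, Txnip and Mt1 had excess CVs of 0.64, 0.74 and 0.46. Of 7 genes in the list, 4 reached 0.5 over spike-in noise (Acta1, Ankrd1, Txnip and Xirp2), and 3 of 7 without the 3 wells.

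Early response genes, which cells switch on within minutes of handling or stimulation, were present in all libraries. Jun gave 820, 369, 406 and 518 CPM in A to D, and Fos 612, 245, 222 and 434 CPM. Cells ran from 0 to 2469 CPM for Jun and from 0 to 4444 CPM for Fos. By these sums library A was the highest for both. By the median cell, A was the highest for Jun (635 CPM), but D was for Fos (377 CPM, 361 in A). A09 held 12.1% of the UMIs of the early response list. With every cell weighted equally, the excess CV of Fos was 1.14 in place of 0.59, and that of Jun 0.62 in place of 0.60. Without the 3 wells that of Jun was 0.37. Over spike-in noise, Jun was at 0.37 and Fos at 0.17, or each at 0 without A09, B04 and C02. Fos and Jun had a correlation of 0.57 over cells, and Egr1, another member, one of 0.30 with Fos. Over spike-in noise 1 of 6 genes reached 0.5 (Zfp36, an mRNA decay factor, at 0.70), and 1 of 6 without the 3 wells (Egr1, at 0.50). Of 24 measured genes 13 had an excess CV of at least 1, beside 48.6% of all genes, and 8 without the 3 wells. Klf2 was the highest at 2.14, with 46.2% of its UMIs in A09, and was at 0.80 without the 3 wells. Nr4a1 was the lowest at 0.58. The list's summed share was highest in A09, at 1.45% of nuclear-encoded UMIs against a median of 0.322%.

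**Figure D4:**
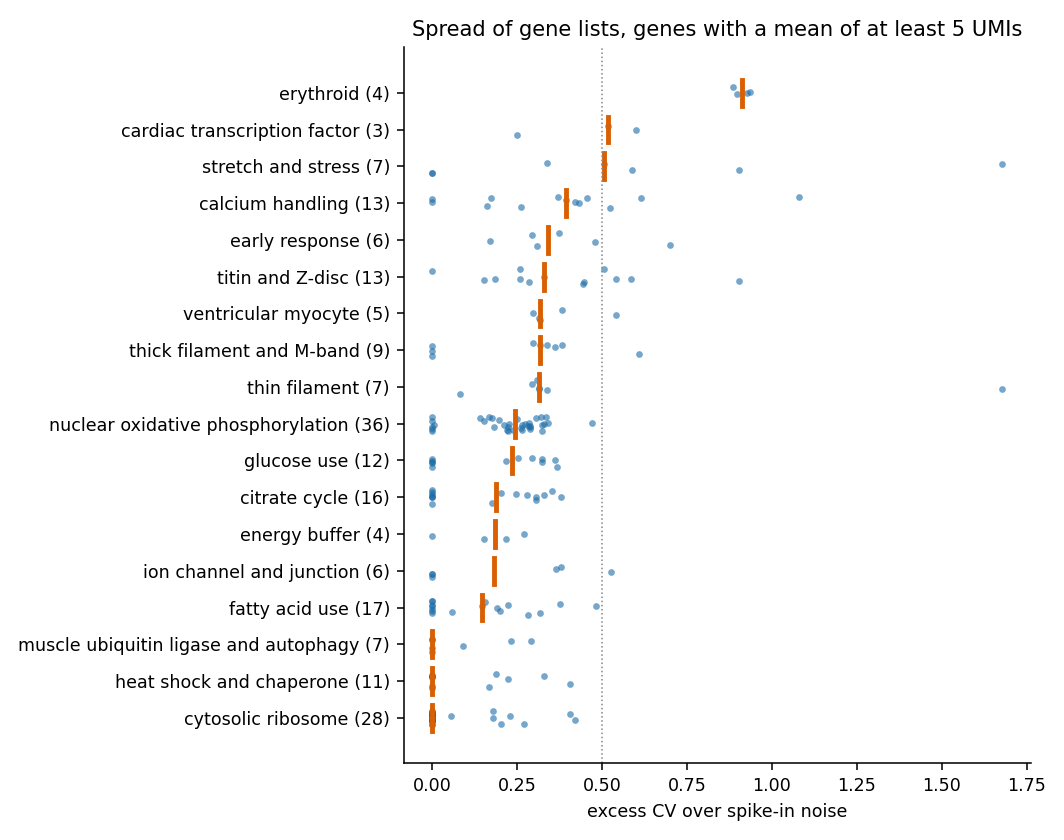
Each point is a gene with a mean of at least 5 UMIs per LV cell, in rows by list with the number of such genes in brackets; the horizontal axis is the excess CV over spike-in noise, the orange bar is the median of the list and the dotted line marks 0.5. The erythroid genes stand together at about 0.9. The cytosolic ribosome, chaperone and ubiquitin ligase and autophagy lists have medians of 0, as do all 767 genes at this level together. Acta1 at 1.68 is the far point of the thin filament and the stretch and stress lists.

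Haemoglobin RNA was found in every LV well and varied as a block. Hbb-bs (chr7:103826534-103828096) gave 4644, 5884, 6732 and 4809 CPM in A to D. Single cells ran from 260 to 62822 CPM around a median of 4051, so every library held low and high wells. Excess CVs were 0.95 for Hbb-bs, 0.94 for Hbb-bt, 0.95 for Hba-a1 and 0.93 for Hba-a2, and all 4 were at 0.89 to 0.93 over spike-in noise. With every cell weighted equally, the excess CVs of Hbb-bs, Hba-a1 and Hba-a2 were 1.40, 1.41 and 1.39. Hbb-bs had a correlation over cells of 0.94 with Hba-a1 and 0.83 with Hbb-bt. The next gene on its list of closest genes, Fau, had 0.30. Hba-a1 and Hba-a2 are near-identical copies, as are Hbb-bs and Hbb-bt in large part, and no source used here says how their shared reads were divided, so the split within each pair is uncertain. The erythroid list took over 2% of nuclear-encoded UMIs in 20 cells, and 12.3% in B12 and 10.7% in A06. The source of this RNA was not tested.

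The windows before the RefSeq start of Hbb-bs (chr7:103827929-103828048, minus strand) and Hba-a1 (chr11:32283552-32283671, plus strand) are shown because these genes, on different chromosomes, moved together. Both lie inside the longer GENCODE spans of these genes. Capitals mark the longest run of bases that both windows share.
Hbb-bs: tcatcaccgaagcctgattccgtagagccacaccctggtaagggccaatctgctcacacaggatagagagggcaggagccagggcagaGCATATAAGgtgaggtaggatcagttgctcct
Hba-a1: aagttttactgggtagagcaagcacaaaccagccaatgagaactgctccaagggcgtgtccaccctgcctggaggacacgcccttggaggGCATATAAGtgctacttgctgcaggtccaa
The shared run is 9 bases long, and its first base lies 32 bases before the start of Hbb-bs and 30 before that of Hba-a1. On either strand it was found in 35 of the 32851 windows of 250 bases (0.107%). The run was picked because these windows share it, so this percentage is no background for a shared run. How often windows of other gene pairs share a run of this length was not tested. Whether the run bears on the levels of these genes was not tested either.

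Markers of other cell types were scarce, and those of endothelial cells lay mostly in few wells. Endothelial genes held 0.0622% of nuclear-encoded UMIs, and 42.4% of their UMIs lay in A09. Pecam1 (the endothelial adhesion molecule CD31) had an excess CV of 2.92, Fabp4 2.51, Flt1 (a VEGF receptor) 2.67 and Ly6c1 2.35, and all 6 measured genes of the list were at 1 or more. Without A09, B04 and C02 they stood at 1.17, 1.83, 1.64 and 1.49, and the median of the 6 genes fell from 2.58 to 1.45. Over spike-in noise, Pecam1, Flt1 and Ly6c1 were then at 0. Pecam1 had UMIs in 27 cells, 15 of them in library A, and 73.4% of its UMIs lay in A09. Mural genes held 0.0268%, fibroblast genes 0.0172%, mesothelial genes 0.00444%, macrophage genes 0.00191%, lymphoid genes 0.00140% and Schwann cell genes 0.000663%. Acta2 and Rgs5 of the mural list had excess CVs of 1.19 and 3.07, and Dcn (decorin) of fibroblasts 2.37, or 3.58 with every cell weighted equally. Antigen presentation genes B2m, H2-D1 and H2-K1 were at 2.04, 2.83 and 1.71, with 33.3%, 52.8% and 26.4% of their UMIs in A09, and at 1.37, 1.05 and 1.51 without the 3 wells.

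Mesothelial markers, which belong to the outer lining of the heart, split by library. Msln (mesothelin) had 0, 24, 24 and 0 UMIs in libraries A to D, found in 15 cells of B and 12 of C. Upk3b had 0, 17, 26 and 0 UMIs, and Muc16 1, 11, 6 and 0. So nearly all UMIs of these genes lay in B and C, spread over many wells, and within libraries the excess CV of Msln and Muc16 was 0. RV cells gave the same pattern, with Msln at 0, 40.4, 57.1 and 0 CPM in A to D. These UMIs rested on few reads, 1.00 per UMI for Msln, 1.72 for Upk3b and 1.28 for Muc16. The cause was not tested, and what a library stands for is not in the labels.

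Some of the highest spreads rested on few wells. Among genes with a mean of at least 5 UMIs, the 15 with the highest excess CV were led by Eln (elastin, 3.09) and Mgp (matrix Gla protein, 3.00), and included 4 predicted genes, Gsn (gelsolin, 2.14), Utrn (utrophin, 2.08), Epas1 (1.82), Acta1 (1.80), Ptprm (1.64), Gnai2 (1.31), Erbb4 (1.15) and Kif1b (1.08). For 10 of the 15 the well with the most UMIs was A09, B04 or C02. A09 held 85.3% of the UMIs of Eln and 81.8% of those of Mgp, at 5039 and 5839 CPM, and Eln gave 692 CPM in library A against 18.3, 13.9 and 9.36 in B, C and D. Without the 3 wells Eln stood at 1.45, Mgp at 0.61, Utrn at 0.78, Epas1 at 0.95, Ptprm at 0.66 and Gnai2 at 0.47, and 9 of the 15 remained at 1 or more. Gsn (2.14) and Acta1 (1.80) were as high without these wells, and the 4 predicted genes were higher, at 2.59 to 2.72. Erbb4, the neuregulin receptor of myocytes, was at 0.75 without the deepest well A13, and Kif1b at 0.81.

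The genes with the lowest spread were not the abundant muscle genes. The 15 with the lowest excess CV were Trim12c (0.13), Afm (0.19), Dlgap1 (0.19), Cftr (0.19), Cdh18 (0.19), Cttnbp2 (0.20), Dgkb (0.21), Trim30a (0.21), Frmpd3 (0.22), Nkain2 (0.23), Epb41l3 (0.23), Grm7 (0.24) and 3 predicted genes. Several are known from other tissues: Cftr encodes a chloride channel of epithelia, Afm a plasma protein of liver, and Grm7 a glutamate receptor of neurons. With every cell weighted equally, Afm stood at 0.48, Dlgap1 at 0.10 and Epb41l3 at 0. Of the 15, 13 had under 2 reads per UMI. Cftr had 1.25 reads per UMI and UMIs in all 91 cells, from 1269 to 4646 CPM, while Myl2 had 7.55 and the median gene 8.45. In all, 45 genes with a mean of at least 5 UMIs had under 2 reads per UMI. They held 4.55% of nuclear-encoded UMIs, their median excess CV was 0.31 against 0.55 for the other 722, and 20 of the 33 genes at 0.3 or less were among them. The difference between genes with few and many reads per UMI was not tested.

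Levels over cells were related to the length of a gene on the chromosome. The 5 genes with levels closest to Ttn were Fgf13, Ryr2, Dmd (dystrophin), Ctnna3 and Slc8a1, with correlations of 0.62 to 0.55, and those closest to Myl2 were Tnni3, Myl3, Slc25a4, Cox7a1 and Ckm, with 0.60 to 0.55. Ttn and Myl2 themselves had -0.14. Across 696 protein-coding genes with a mean of at least 5 UMIs and 2 or more reads per UMI, the correlation of a gene with Ttn rose with its annotated span (Spearman 0.61 across genes, which are not independent), and its correlation with Myl2 fell with span (-0.52). The 50 genes closest to Ttn had a median span of 290 kb and the 50 closest to Myl2 6.65 kb, beside 17.7 kb for all. All values share the same cells and the same total, and this split was looked for after the closest genes had been seen.

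Long genes also varied more. The 144 protein-coding genes with a span of at least 100 kb (CT010467.1 followers left out) took 3.70% to 12.4% of a cell's nuclear-encoded UMIs, with medians of 6.96%, 8.20%, 7.54% and 7.94% in A to D, so the libraries overlapped. The 359 genes under 20 kb took 8.23% to 37.8%, and the 2 shares had a correlation of -0.47. Among long genes 28 (19.4%) had an excess CV over spike-in noise of at least 0.5, and among short genes 19 (5.29%), beside 8.6% of all. Of the 66 genes of any span at 0.5 or more, 23 fell below it without A09, B04 and C02. The counts by span were not made without these wells. The mean levels of long and short genes were alike, at medians of 8.20 and 11.2 UMIs, as were their reads per UMI, at 9.45 and 8.18. The share of long genes had a correlation of 0.28 with a cell's nuclear-encoded UMIs and -0.27 with its mitochondrially encoded share. No source used here says whether reads in introns were counted.

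**Figure D5:**
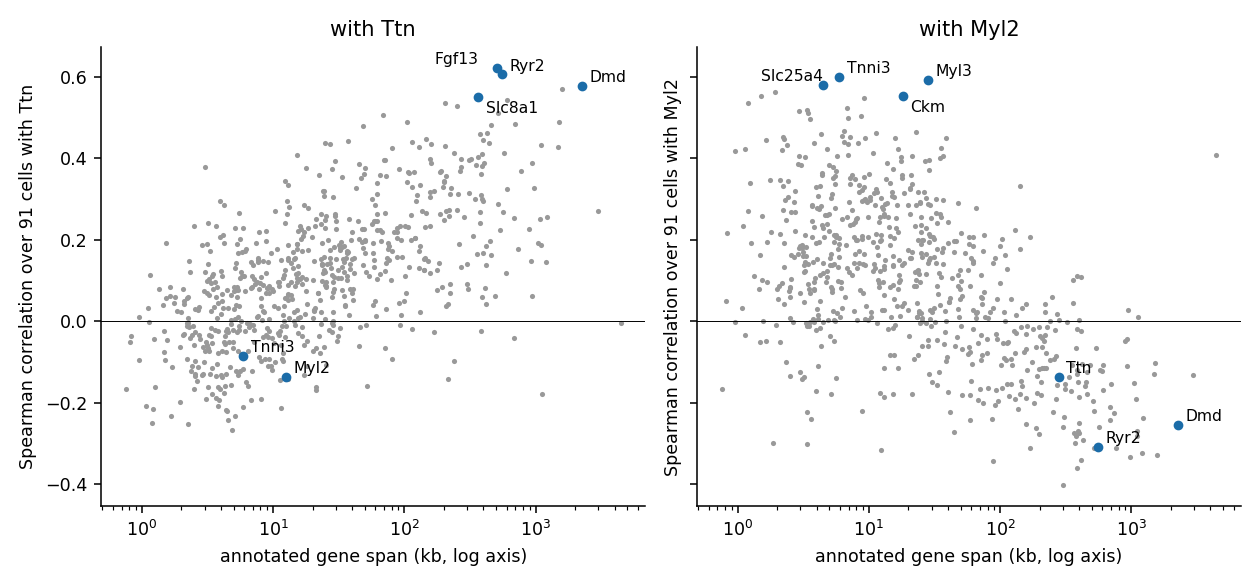
Each point is a protein-coding gene (696 in each panel); the horizontal axis is its annotated span in kb on a logarithmic scale and the vertical axis the Spearman correlation of its level with that of Ttn (left) or Myl2 (right) over the 91 LV cells. Correlations with Ttn rise with span, with Fgf13, Ryr2, Dmd and Slc8a1 at the upper right, and correlations with Myl2 fall with span.

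Between libraries, most of the well measured genes differed by less than 2-fold. The ratio of the highest to the lowest library was at least 2 for 43.8% of the 3775 genes with a mean of at least 1 UMI, but for 56 of the 767 with a mean of at least 5 UMIs, or 48 without A09, B04 and C02. The 5 largest among the latter were Eln (74.0-fold), Mgp (52.6-fold) and 3 predicted genes (up to 6.33-fold). Mb (myoglobin, the oxygen store of heart muscle, chr15:77015487-77050670) differed in another way. It gave 620, 218, 792 and 962 CPM in A to D, with 420, 131, 513 and 617 UMIs, a ratio of 4.40. Single cells ran from 35.8 to 1717 CPM in A, 0 to 544 in B, 154 to 1234 in C and 303 to 2602 in D, and the median of B (185 CPM) lay below the lowest cell of D. Its excess CV within libraries was 0.38 and 0 over spike-in noise. Mb was lowest in library B in the right ventricular (RV) cells of the same libraries as well, at 398 CPM there against 1150, 460 and 533 in A, C and D. Ndufb8, a respiratory chain subunit, was also lowest in B in LV cells (128 CPM, 387 in D), but not in RV cells (219 in B, 210 in D).

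The 56 genes shared their highest and lowest library between the ventricles about as often as all genes did. Of them, 15 (26.8%) had the same highest library in RV as in LV cells and 17 (30.4%) the same lowest library, beside 28.3% and 29.6% of all 767 genes. By summed counts Jun and Fos, highest in library A in LV cells, were highest in B and in D in RV cells.

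RV cells gave a like order of spread. Across the 754 genes with a mean of at least 5 UMIs in both chambers, the excess CVs of 91 LV and 90 RV cells had a Spearman correlation of 0.82, and their values over spike-in noise 0.56. The median was 0.54 in LV and 0.49 in RV cells, and 242 of 754 genes were higher in RV. These values include A09, B04 and C02. Without these wells the LV median over all 767 genes moved by more than the SD between libraries. The count against RV cells was not made without them. Acta1 stood at 1.80 and 1.62, Ankrd1 at 1.01 and 1.37, Hbb-bs at 0.95 and 1.25, Ttn at 0.55 and 0.54 and Myl2 at 0.32 and 0.32 in LV and RV. Clu (1.06 and 0.58) and Gnai2 (1.31 and 0.68) were lower in RV, and without A09, B04 and C02 their LV values were 0.63 and 0.47. Both chambers share the fall of spread with level, so the order of spread and the order of level cannot be told apart here.

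Sex-linked RNA did not sort the wells. Xist, the X-inactivation RNA, had UMIs in 49 cells at 87.7 CPM, and the Y-linked Ddx3y in 59 cells at 49.9 CPM. Both were seen in 39 cells and neither in 22. Ddx3y had 1.41 reads per UMI, against 8.60 for Xist. Uty had 3 UMIs, and Kdm5d was seen in 0 of 91 cells, which allows a share of up to 3.30% of cells with a UMI. Among nuclear long non-coding RNAs, Malat1 and Neat1 had excess CVs of 0.36 and 0.54, and Malat1 0.57 with every cell weighted equally.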

How the data were processed

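The authors deposited UMI counts and read counts per gene and cell barcode, not normalized, beside a table with each cell's library and chamber. Per the submitters' processing notes, STAR 2.5.4b, featureCounts and GRCm38 were used; how strand and UMIs were handled is not given in the sources used here. GENCODE M21 (GRCm38) gave symbols, coordinates and types for 24489 of 24522 gene IDs. Another 21 barcode columns had no cell label and were left out.

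Cells were scaled by nuclear-encoded UMIs; mitochondrially encoded genes were scaled by all gene UMIs and spike-ins by their own total. The excess CV is the square root of a moment estimate around library means, with Poisson noise subtracted; cells weigh by depth. It was tested on simulated data. Values were computed with numpy 2.4.6, scipy 1.17.1 and pandas 2.3.3 under Python 3.11.15, and drawn with matplotlib 3.10.9. Intervals are 95% and cover counting error only.

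The members, the 31 gene lists and the thresholds were chosen with earlier results of these data known. Named are the 15 most abundant genes, the 15 highest and 15 lowest in spread and the 5 with the largest library ratio among genes with a mean of at least 5 UMIs, all ventricular, atrial, sex and mitochondrially encoded protein genes, and of the other lists the 3 most abundant and the extreme members. Others, such as Mb, Ndufb8, Ptgds, Txnip, Zfp36, Nebl, Tnnc1, Fgf13 and Slc8a1, the measure over spike-in noise, the comparison by gene span and the 3 wells left out were chosen after values were seen. Predicted genes are counted only. Doublets were not called, since cells were sorted into single wells. Some genes that this rule names are not reported here.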

Additional observations from a re-analysis of the deposited data

Results flagged for a closer look

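Each of the 4 libraries was compared with the other 3 for 145 levels and list shares, and 9 had a library far from the rest: the gap to the nearest library exceeded 0.829 of the whole range. Chance flags about 1 in 20 groups that were not chosen on their values. The genes here were in part chosen for their library ratio or spread, so the number of flags cannot be read against that rate. Library A stood apart for Eln (692 CPM, next 18.3), Mgp (820.3 CPM, next 28.4), Clu (706.7 CPM, next 412), Actb (832.1 CPM, next 573) and the mural list (0.0422% of nuclear-encoded UMIs, next 0.0225%). The well A09 held 85.3% of the UMIs of Eln, 81.8% of those of Mgp and 16.9% of those of Clu. Nkain2 was highest in library C (1881 CPM, next 1581). Epb41l3 was lowest in library D (168.4 CPM, next 220). Mdh1, a citrate cycle enzyme, was lowest in library B (995.7 CPM, next 1310). The cardiac transcription factor list was highest in library D, at 0.2034% against 0.197% in each of the others.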

How the results depend on the processing

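No paired analysis was possible because the LV cells belong to 1 deposited sample, the labels give no replicate numbers and no test was run. The number of genes holding 50% of nuclear-encoded UMIs (248) ranged from 229 to 263 when each library was left out, and was 406 without the ribosomal RNA locus, its followers and the loci with few reads per UMI. Genes seen in at least 95% of cells (304) ranged from 280 to 372 without each library, and were 526 among cells with at least 20000 gene UMIs and 118 with no cell filter. Genes with an excess CV of at least 1 (1835) ranged from 1614 to 2030 without each library; they were 5992 at a mean of at least 0.3 UMI, 25 at a mean of at least 5 UMIs and 188 with spike-in noise taken off. Genes over spike-in noise (66) ranged from 48 to 79 without each library, and were 121 with median-of-ratios factors, and 174 and 40 with the lowest and the highest spike-in in place of the median. Genes with a library ratio of at least 2 (1655) ranged from 1168 to 1242 without each library, where 3 libraries remain to be compared, and were 5604 and 56 at means of at least 0.3 and 5 UMIs. Fewer or more genes enter at another minimum mean; for the other changes the cause was not tested. For single genes, 174 of 1885 excess CVs and 310 of 2012 levels moved by more than the SD between libraries under an alternative, as did 54 of 325 list medians. The measure over spike-in noise was not run on thinned cells or without each gene's top cell. Wells with few UMIs limit detection: 11 of 91 cells did not reach 10000 nuclear-encoded UMIs.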
